A study of Mus musculus with 6 samples.

Results

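Voltage-gated sodium channels, HCN channels and Kv7 potassium channels set how easily a neuron fires, and 7 of their genes are described here in prefrontal cortex of mice carrying a 16p11.2 duplication. The genes were taken by symbol: Scn1a and Scn8a (sodium channel pore-forming subunits), Scn2b and Scn4b (sodium channel beta subunits), Hcn2 (an HCN channel), and Kcnq3 and Kcnq5 (Kv7 channels). All 7 were found, and all 7 are among the 15401 genes with enough counts to test, out of 45476 named count lines. The study sequenced ribosome-depleted total RNA, in stranded libraries, from homogenised prefrontal cortex at postnatal week 8. Of the 6 libraries, 3 came from mice heterozygous for the duplication and 3 from wild type mice, of a line made on a C57BL/6N and 129Sv hybrid background and crossed back to C57BL/6 for 10 generations. Since the labels do not tie libraries to individual animals, p-values reflect only how these libraries scatter, part of which may be technical.

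Sodium channel alpha subunits form the pore that carries the rising phase of the action potential, and beta subunits are membrane proteins that alter gating and surface placement of that pore. HCN channels open when the membrane hyperpolarises and carry an inward cation current that shapes resting potential and the summation of synaptic input. Kv7 channels carry the M-current, a slowly activating potassium current that is active near spike threshold, limits repetitive firing and is switched off by muscarinic receptors through Gq signalling.

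The libraries held 21872271, 14891890 and 16038828 counts in the duplication group and 12988457, 14369271 and 13889329 in the wild type group. Gene names in the deposited table had slipped against the counts, and names were moved back by the offset of each stretch of the table. The genes of the duplicated interval summed to 4101 to 5701 CPM in duplication libraries, against 2533 to 2830.0 in wild type libraries. CPM is a gene's count scaled to its library's total, with TMM factors. Of the 23 tested interval genes, 22 had a positive log2 fold change, against 7852 of all 15401 tested genes. The libraries did not separate only by genotype. On the first principal component, which held 45.5% of the variance, the duplication libraries lay at -24.82, -17.81 and -7.23, while wild type libraries 1 and 3 lay at 27.21 and 26.69 and wild type library 2 at -4.04. Both libraries numbered 1 had no Xist counts and 2147 (duplication) and 982 (wild type) counts of the Y-linked gene Ddx3y, both numbered 3 had Xist with 5 and 0 counts of Ddx3y, and both numbered 2 had Xist together with 77 and 71 counts of Ddx3y. Results are therefore also given without wild type library 2 and without both libraries numbered 2. Both fits were singled out from these same data. Wild type library 2 lay nearest the duplication libraries, so leaving it out favours a group difference. The adjusted p-values of these fits are given as descriptions.

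None of the 7 channel genes differed between duplication and wild type cortex past the threshold. With edgeR's quasi-likelihood test and Benjamini-Hochberg adjustment over all genes, 0 of 7 had an adjusted p under 0.05, where 0% of the 15401 tested genes were called higher and 0% were called lower. DESeq2 and limma-voom also called 0 of 7. Over all genes limma-voom called 0 higher and 0 lower, and DESeq2 called 0.318% higher and 1.17% lower. At an unadjusted p under 0.05, 1 of 7 was lower (Scn8a) and 0 were higher, against 12.2% of all genes lower and 7.07% higher. Of the 23 tested genes of the duplicated interval itself, edgeR also called 0 after adjustment. At an unadjusted edgeR p under 0.05, 20 of those 23 were higher and 0 lower. An absence of calls therefore does not show equal levels. The libraries of the groups overlapped for each of the 7, whereas they lay apart for 10.5% of all genes in the lower and 11.7% in the higher direction. The log2 fold changes of duplication over wild type ran from -0.51 to 0.05 with a median of -0.02, beside a median of 0.005 over all tested genes. Scn8a and Kcnq3 had values far below the other 5, whose log2 fold changes lay between -0.15 and 0.05. In a bulk homogenate, fewer cells of a type and less RNA per cell cannot be told apart.

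**Figure D1:**
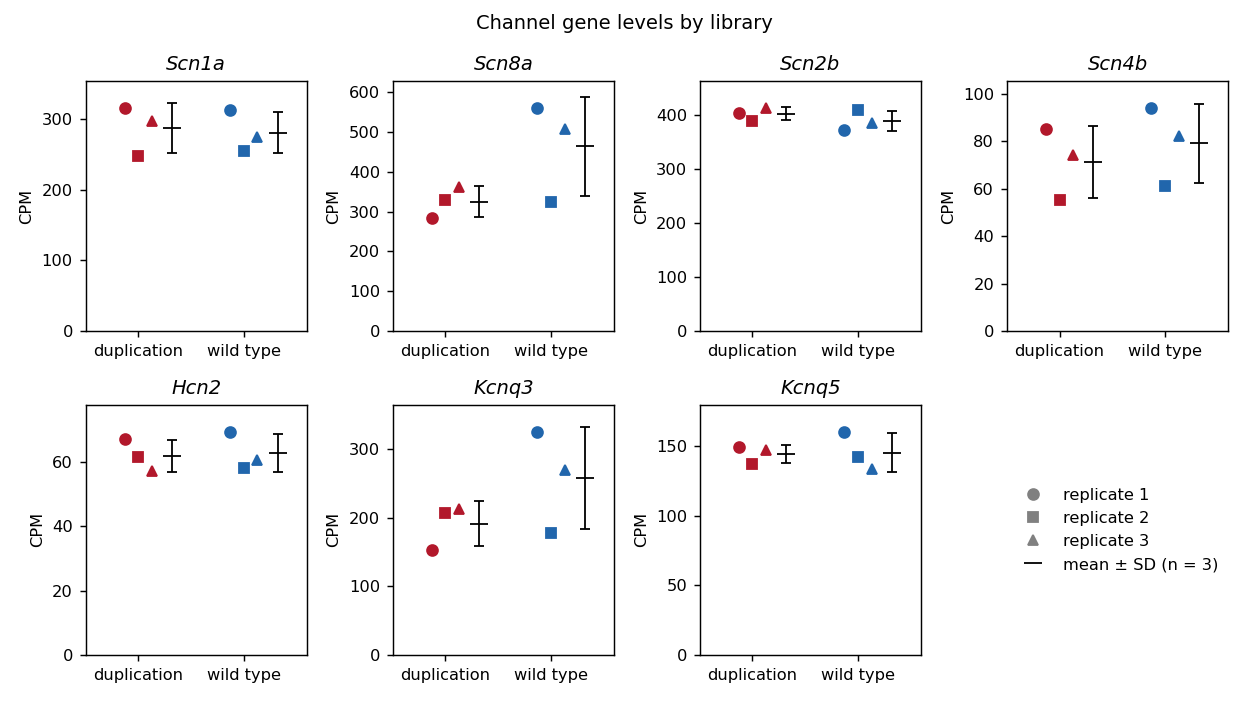
Level of each of the 7 channel genes (CPM, TMM-scaled) in the 3 duplication libraries, on the left, and the 3 wild type libraries, on the right, with 1 symbol per library, shaped by replicate number, and the mean ± SD (n = 3). For Scn8a and Kcnq3 wild type library 2 lies among the duplication libraries while wild type libraries 1 and 3 lie above them; for the other 5 genes the 2 groups cover about the same range.

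Scn8a encodes Nav1.6, the sodium channel concentrated at the axon initial segment, where spikes start, and at nodes of Ranvier. The gene lies at chr15:100869858-101045938 on the plus strand of mm10 and has 15766 exonic bases over 20 annotated transcripts, 4 of them retained-intron transcripts. Its level was 283.8, 327.9 and 361.4 CPM in duplication libraries 1 to 3, against 559.8, 323.3 and 506.9 CPM in wild type libraries 1 to 3. Wild type library 2 sat inside the duplication range, and wild type libraries 1 and 3 sat well above it. The means were 324.4 ± 38.9 CPM in duplication cortex and 463.3 ± 124.1 CPM in wild type cortex (SD, n = 3 each), a log2 fold change of -0.51 ± 0.18 (SE; 95% interval -0.92 to -0.11) or 0.70-fold. The edgeR p was 0.0181 before and 0.189 after adjustment. Without wild type library 2, Scn8a had a log2 fold change of -0.72 and an edgeR adjusted p of 0.00214, in a comparison that then called 10.7% of all genes lower and 4.65% higher. With both libraries numbered 2 left out, the log2 fold change was likewise -0.72, with an edgeR adjusted p of 0.0114, and 7% of all genes called lower and 1.48% higher. With no filter on low counts, Scn8a also passed, at -0.51 with an edgeR adjusted p of 0.0112, where 3.18% of all genes were called lower and 0.655% higher. With other libraries left out, Scn8a did not pass: the log2 fold change was -0.36 (edgeR adjusted p = 0.42) without wild type library 1, -0.45 (edgeR adjusted p = 0.471) without wild type library 3 and -0.42 (edgeR adjusted p = 0.502) without duplication library 1.

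Scn1a encodes Nav1.1, the sodium channel on which fast-spiking parvalbumin interneurons depend. It lies at chr2:66270778-66440840 on the minus strand and has 11146 exonic bases. Its level was 315.6, 247.3 and 297.1 CPM in duplication libraries, against 312.0, 254.7 and 274.9 CPM in wild type libraries. In both groups the library numbered 2 was the lowest and that numbered 1 the highest, and the groups overlapped throughout. The means were 286.7 ± 35.4 CPM in duplication cortex and 280.5 ± 29.1 CPM in wild type cortex (SD, n = 3 each), with a log2 fold change of 0.03 ± 0.10 (SE; 95% interval -0.20 to 0.27; edgeR adjusted p = 0.889). The interval leaves room for a difference of either sign up to its bounds.

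Per kilobase of exon, Scn2a1 (Nav1.2, the main sodium channel of excitatory neurons) made up the largest share of the 9 sodium channel alpha subunits analysed here in each of the 6 libraries. Its share was 56.3 ± 1.29% in duplication cortex and 53.7 ± 3.05% in wild type cortex (SD, n = 3 each). Scn8a held 14.3%, 15.9% and 16.6% of the alpha subunit CPM per kilobase in duplication libraries, against 22.4%, 15.9% and 21.4% in wild type libraries. The share of Scn8a in wild type library 2 thus fell within the duplication range, as its level did. Scn1a held 19.6 ± 2.80% in duplication cortex and 17.3 ± 0.708% in wild type cortex (SD, n = 3 each).

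The start-site windows of these genes are shown because the series title names Npas4, a neuronal activity-dependent transcription factor, and its core DNA element can be looked for in them. RefSeq windows on GRCm38.p6, from 250 bases before to 50 bases after an annotated start, were found for 6 of the 7 genes, and Kcnq3 was not matched. The core element TCGTG, searched on both strands, was present in 3 of the 8 windows of these genes, each of another gene, against 16.0% of all 32851 windows of the same length. The cAMP response element TGACGTCA was in 0 of the 8 windows of these genes and in 1.79% of all windows. The 3 windows that hold TCGTG are printed on the gene's strand, 5′ to 3′, with that element in capitals; they lie at chr15:100870395-100870694 for Scn8a, chr2:66440788-66441087 for Scn1a and chr9:45138374-45138673 for Scn4b.
Scn8a: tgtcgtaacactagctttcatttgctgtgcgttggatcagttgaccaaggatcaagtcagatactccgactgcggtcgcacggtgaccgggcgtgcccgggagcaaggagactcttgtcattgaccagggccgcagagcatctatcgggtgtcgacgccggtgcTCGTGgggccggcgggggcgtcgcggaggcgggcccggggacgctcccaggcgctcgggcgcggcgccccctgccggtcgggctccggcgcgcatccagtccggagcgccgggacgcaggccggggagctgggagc
Scn1a: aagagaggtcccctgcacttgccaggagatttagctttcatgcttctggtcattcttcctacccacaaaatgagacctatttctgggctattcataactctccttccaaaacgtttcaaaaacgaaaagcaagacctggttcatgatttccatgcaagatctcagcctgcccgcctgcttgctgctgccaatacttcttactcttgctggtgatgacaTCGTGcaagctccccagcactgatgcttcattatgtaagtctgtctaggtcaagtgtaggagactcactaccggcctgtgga
Scn4b: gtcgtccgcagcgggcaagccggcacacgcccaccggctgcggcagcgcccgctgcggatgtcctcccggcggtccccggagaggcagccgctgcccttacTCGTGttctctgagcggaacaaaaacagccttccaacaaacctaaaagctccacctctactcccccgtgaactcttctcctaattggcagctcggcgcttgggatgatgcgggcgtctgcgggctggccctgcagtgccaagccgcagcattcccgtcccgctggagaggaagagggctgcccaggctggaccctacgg
The element's first base lay at -86 from the start for Scn8a, at -32 for Scn1a and at -149 for Scn4b. GC content was 70.0% in the Scn8a window, 47.3% in the Scn1a window and 66.3% in the Scn4b window. A match of these letters describes the sequence and says nothing of whether a factor binds there. The 3 genes with the element had log2 fold changes of -0.51, 0.03 and -0.15.

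Scn2b encodes the beta-2 subunit, which is linked to the alpha subunit by a disulfide bond and promotes its surface expression. It lies at chr9:45117782-45130070 on the plus strand and has 4656 exonic bases. Its level was 403.7, 389.2 and 412.7 CPM in duplication libraries, against 371.5, 409.0 and 384.2 CPM in wild type libraries. It was the steadiest of the 7 genes, with a coefficient of variation of 2.94% in duplication and 4.92% in wild type libraries. The means were 401.9 ± 11.8 CPM in duplication cortex and 388.2 ± 19.1 CPM in wild type cortex (SD, n = 3 each), a log2 fold change of 0.05 ± 0.06 (SE; 95% interval -0.08 to 0.18; edgeR adjusted p = 0.665). It also had the highest level per kilobase of exon among the 7, at 86.3 CPM per kilobase in duplication and 83.4 in wild type cortex.

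Scn4b encodes the beta-4 subunit, which supports the resurgent sodium current of fast-spiking neurons and is abundant in striatal neurons. It lies next to Scn2b, at chr9:45138395-45154152 on the plus strand, with 4982 exonic bases. Its level was 85.07, 55.1 and 74.09 CPM in duplication libraries, against 94.16, 61.22 and 82.41 CPM in wild type libraries. The library numbered 2 was the lowest of its group and that numbered 1 the highest in both groups. The means were 71.4 ± 15.2 CPM in duplication cortex and 79.3 ± 16.7 CPM in wild type cortex (SD, n = 3 each), with a log2 fold change of -0.15 ± 0.18 (SE; 95% interval -0.55 to 0.26; edgeR adjusted p = 0.678). Markers of parvalbumin interneurons, 4 of 4 detected, summed to 67.8, 52.7 and 68.7 CPM in duplication libraries and 72.2, 59.6 and 66.7 CPM in wild type libraries. In these sums too the library numbered 2 was the lowest of its group, but the markers did not all follow them. Syt2 was lowest in the library numbered 2 of both groups. Pvalb was at 28.0, 27.9 and 29.3 CPM in wild type libraries. Cox6a2 was highest in wild type library 2, and Tmem132c was lowest in duplication library 1. The 8 striatal neuron markers, all above 0 but with Drd2 at a mean of 0.385 CPM, summed to 173.6 to 193.1 CPM in duplication and 179.6 to 211.0 CPM in wild type libraries. The part of either marker list in the Scn4b values was not tested.

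Hcn2 encodes an HCN channel found in many central neurons. It lies at chr10:79716634-79736108 on the plus strand, with 3195 exonic bases. Its level was 67.07, 61.53 and 57.06 CPM in duplication libraries, against 69.47, 58.16 and 60.51 CPM in wild type libraries. The groups overlapped almost completely. The means were 61.9 ± 5.01 CPM in duplication cortex and 62.7 ± 5.96 CPM in wild type cortex (SD, n = 3 each), a log2 fold change of -0.02 ± 0.09 (SE; 95% interval -0.22 to 0.18; edgeR adjusted p = 0.934).

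Kcnq3 encodes Kv7.3, a subunit of the M-current channel of the axon initial segment. It lies at chr15:65986387-66286642 on the minus strand and has 14708 exonic bases. Its level was 153.0, 206.4 and 213.0 CPM in duplication libraries, against 325.3, 177.3 and 269.6 CPM in wild type libraries. Wild type library 2 was again among the duplication libraries, and wild type libraries 1 and 3 were above each of them. The means were 190.8 ± 32.9 CPM in duplication cortex and 257.4 ± 74.7 CPM in wild type cortex (SD, n = 3 each), a log2 fold change of -0.43 ± 0.20 (SE; 95% interval -0.89 to 0.02) and a fold of 0.741, with an edgeR p of 0.0611 before and 0.279 after adjustment. Without wild type library 2 the log2 fold change was -0.64 with an edgeR adjusted p of 0.0122, where 10.7% of all genes were called lower. Without both libraries numbered 2 it was -0.70 with an edgeR adjusted p of 0.0286, where 7% of all genes were called lower. Kcnq3 did not pass with any other library left out. It was at -0.23 (edgeR adjusted p = 0.607) without wild type library 1 and -0.40 (edgeR adjusted p = 0.532) without wild type library 3. Without duplication library 1, 2 or 3 it was at -0.29, -0.49 or -0.52 (edgeR adjusted p = 0.592, 0.403 and 0.332).

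Kcnq5 encodes Kv7.5, which can form M-current channels with Kv7.3. It lies at chr1:21398403-21961942 on the minus strand, with 7689 exonic bases. Its level was 149.4, 137.1 and 147.0 CPM in duplication libraries, against 160.4, 141.9 and 133.4 CPM in wild type libraries. The duplication values all fell between the lowest and highest wild type values. The means were 144.5 ± 6.56 CPM in duplication cortex and 145.3 ± 13.8 CPM in wild type cortex (SD, n = 3 each), a log2 fold change of -0.01 ± 0.08 (SE; 95% interval -0.18 to 0.17; edgeR adjusted p = 0.970). No source used here says whether the counting used strand, and 237 exonic bases of Kcnq5 are shared with the noncoding gene Gm26580 on the opposite strand, so reads there cannot be told apart.

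Ordered by level per kilobase of exon in duplication cortex, the 7 genes ran from Scn2b at 86.3 CPM per kilobase through Scn1a at 25.7, Scn8a at 20.6, Hcn2 at 19.4, Kcnq5 at 18.8 and Scn4b at 14.3 to Kcnq3 at 13.0. In wild type cortex Scn2b was at 83.4, Scn8a at 29.4, Scn1a at 25.2, Hcn2 at 19.6, Kcnq5 at 18.9, Kcnq3 at 17.5 and Scn4b at 15.9 CPM per kilobase. Scn1a and Scn8a stood in opposite order in the groups, as did Scn4b and Kcnq3, and neither difference in order was tested. Single libraries broke both orders: in wild type library 2 Scn1a stood above Scn8a and Scn4b above Kcnq3, as in the duplication means, and in duplication library 2 Kcnq3 stood above Scn4b, as in the wild type means. The differences in order also depend on how length is counted. Exonic bases here include those found only in retained-intron transcripts: 2550 of 11146 for Scn1a and 2763 of 14708 for Kcnq3. Scn8a has 667 of 15766 and Scn4b 0. With those bases left out, Scn1a stands above Scn8a and Kcnq3 above Scn4b in the means of both groups.

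The other genes of the same channel families were examined next. Of 11 further family genes analysed here, 7 had enough counts to test; Scn4a, Scn10a, Scn11a and Kcnq1 did not. None of the 7 had an edgeR adjusted p under 0.05, 2 (Scn3a and Scn9a) were lower and 0 higher at an unadjusted p under 0.05, against 12.2% lower over all genes, and their median log2 fold change was -0.25, beside 0.005 over all genes. Scn2a1 was at 890.2, 961.3 and 973.4 CPM in duplication libraries, against 1023.0, 933.3 and 1023.0 CPM in wild type libraries, with a log2 fold change of -0.08 ± 0.06 (SE; edgeR adjusted p = 0.518).

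The groups lay apart, with each duplication library below each wild type library, for 2 of the 7, against 10.5% of all genes. Scn3a, the Nav1.3 gene of the developing brain, was at 86.4 to 102.1 CPM in duplication libraries and 107.2 to 120.1 CPM in wild type libraries, with a log2 fold change of -0.25 ± 0.08 (SE; edgeR adjusted p = 0.179). Scn9a (Nav1.7, best known in pain-sensing neurons) had a log2 fold change of -0.85 ± 0.26 (SE; edgeR adjusted p = 0.175), at under 5 CPM in each library. Neither passed the threshold. The log2 fold changes of the other tested family genes were -0.26 for Scn7a, 0.03 for Scn3b, -0.20 for Hcn3 and -0.61 for Hcn4, with edgeR adjusted p between 0.367 and 0.847.

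**Figure D2:**
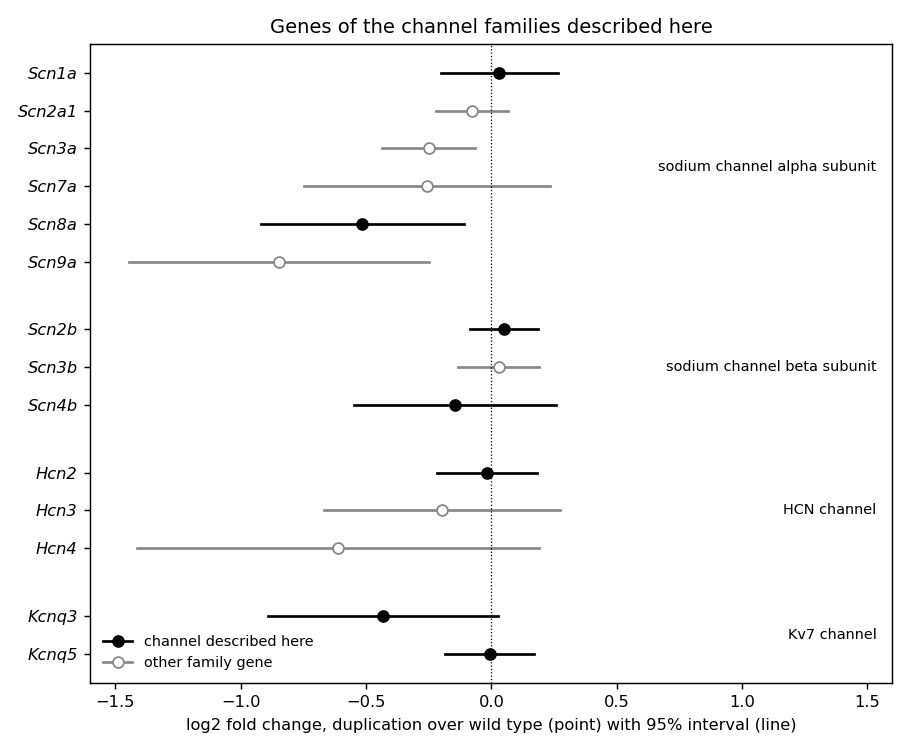
Log2 fold change of duplication over wild type, with its 95% interval, for the tested genes of the sodium channel alpha and beta subunit, HCN and Kv7 families analysed here; filled points mark the 7 channel genes and open points 7 other family genes. Scn8a is the only one of the 7 whose interval excludes 0 before adjustment over all genes, and Scn2b, Scn1a, Hcn2 and Kcnq5 lie near 0.

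Genes whose products place or control these channels were taken from 3 lists. From each list the 3 tested genes of smallest unadjusted edgeR p are described. Of the 10 partner genes, 6 were lower and 0 higher at an unadjusted p under 0.05, against 12.2% lower and 7.07% higher over all genes. After adjustment edgeR called 0 of the 10. Their median log2 fold change was -0.22, beside 0.005 over all genes. The groups lay apart for 1 partner gene in the lower and 1 in the higher direction, against 10.5% and 11.7% of all genes. Ank3, which encodes the ankyrin-G scaffold that anchors sodium and Kv7 channels at the axon initial segment, was at 270.2, 315.2 and 367.7 CPM in duplication libraries, against 690.8, 346.8 and 614.5 CPM in wild type libraries. As for Scn8a, wild type library 2 lay within the duplication range, and the log2 fold change was -0.79 ± 0.22 (SE; edgeR adjusted p = 0.174). Nfasc, the adhesion protein of the same membrane domain, had a log2 fold change of -0.71 ± 0.20 (SE; edgeR adjusted p = 0.174), and Bace1, the protease that cleaves sodium channel beta subunits, one of -0.25 ± 0.09 (SE; edgeR adjusted p = 0.200).

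Of the 8 M-current control genes, 0 had an unadjusted p under 0.05, against 12.2% lower and 7.07% higher over all genes. Their median log2 fold change was -0.05, beside 0.005 over all genes. The groups lay apart for 1 of the 8 in the higher and 0 in the lower direction, against 11.7% and 10.5% of all genes. The muscarinic receptor gene Chrm1 had a log2 fold change of -0.23 ± 0.12 (SE; edgeR adjusted p = 0.325), the Gq subunit gene Gnaq one of -0.20 ± 0.09 (SE; edgeR adjusted p = 0.265) and Pip5k1c, a kinase that makes the PIP2 the channels need, one of -0.09 ± 0.07 (SE; edgeR adjusted p = 0.486). Of the 16 leak and inward rectifier genes, 4 were lower and 0 higher at an unadjusted p under 0.05, against 12.2% lower and 7.07% higher over all genes. Their median log2 fold change was -0.07, beside 0.005 over all genes. The groups lay apart for 2 of the 16 in the lower and 0 in the higher direction, against 10.5% and 11.7% of all genes. Unc80 and Unc79, subunits of the sodium leak channel complex, had log2 fold changes of -0.45 ± 0.13 (SE; edgeR adjusted p = 0.174) and -0.31 ± 0.10 (SE; edgeR adjusted p = 0.176), and Kcnk9, the TASK-3 leak potassium channel, one of -0.38 ± 0.11 (SE; edgeR adjusted p = 0.174). Over the 41 tested genes of the families and lists without the 7, edgeR called 0 after adjustment and DESeq2 called 1 lower, Unc80. Without wild type library 2, edgeR called 14 of 42 lower and 0 higher, against 10.7% lower over all genes.

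The position of each library was compared gene by gene with the wild type mean. For Scn8a the duplication libraries deviated by -0.67, -0.46 and -0.32 on the log2 scale and the wild type libraries by 0.31, -0.48 and 0.17; for Kcnq3 the values were -0.71, -0.27 and -0.23 in duplication and 0.38, -0.49 and 0.11 in wild type libraries. Noncoding transcripts of the annotation classes TEC (loci still awaiting experimental evidence; 252 genes) and sense intronic (38 genes), which in total RNA can carry unspliced pre-mRNA, were summarised in the same way. Their mean level was -0.78, -0.76 and -0.46 in duplication libraries 1 to 3 and 0.14, -0.33 and 0.20 in wild type libraries 1 to 3, and wild type library 2 was again nearest to the duplication libraries. This level was correlated with genotype at -0.86 over the 6 libraries, so genotype and this level cannot be told apart. With the level added to the model, which left 3 residual degrees of freedom, the log2 fold change was 0.34 for Scn8a and 0.44 for Kcnq3, each with an edgeR adjusted p of 0.999 and of the opposite sign. The part of this level in the result was not tested.

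**Figure D3:**
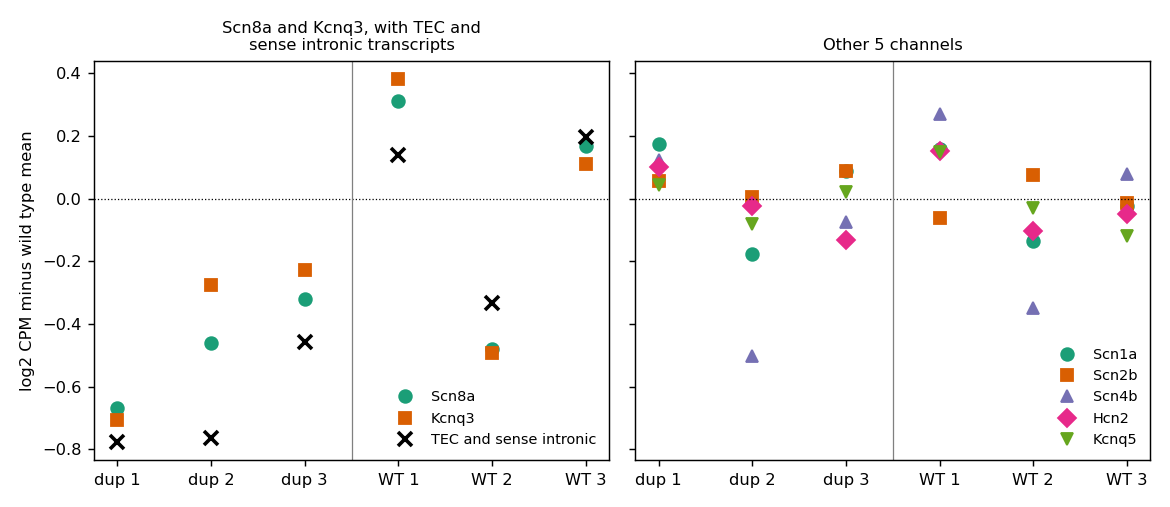
Log2 CPM minus the wild type mean in the 3 duplication libraries and then the 3 wild type libraries, for Scn8a, Kcnq3 and the TEC and sense intronic transcripts (first panel) and for the other 5 channel genes (second panel), with 1 symbol per gene and library. Scn8a, Kcnq3 and the TEC and sense intronic level are below the wild type mean in the 3 duplication libraries and in wild type library 2, and above it in wild type libraries 1 and 3.

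Gene length moved with the fold changes as well. Among 12946 tested protein-coding genes, those with under 2000 exonic bases had a median log2 fold change of 0.10, and 1.70% of them were lower at an unadjusted p under 0.05. For the 817 genes with 12000 exonic bases or more the median was -0.155 and 38.3% were lower, against 11.0% over all protein-coding genes. Scn8a and Kcnq3 are the members in this longest class. Scn3a, Scn9a and Scn2a1 are in it too, as are the related genes Ank3, Nfasc, Nedd4l, Nalcn, Unc80, Unc79 and Kcnk9. Exonic length counts bases found only in retained-intron transcripts, such as 2763 of 14708 for Kcnq3 and 3562 of 12732 for Scn2a1. Without those bases Kcnq3, Scn2a1, Scn9a, Nfasc, Nedd4l, Nalcn and Unc79 would fall under 12000. Scn8a, Scn3a, Ank3, Unc80 and Kcnk9 would stay in the class. Hcn2 falls in the class from 2000 to under 4000 bases, whose median was 0.07, Scn2b, Scn4b and Kcnq5 in the class from 4000 to under 8000 bases, whose median was -0.01, and Scn1a in that from 8000 to under 12000 bases, whose median was -0.08. The log2 fold changes of Scn8a (-0.51) and Kcnq3 (-0.43) lay below the median of their length class. The part of exonic length in these values was not tested.

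**Figure D4:**
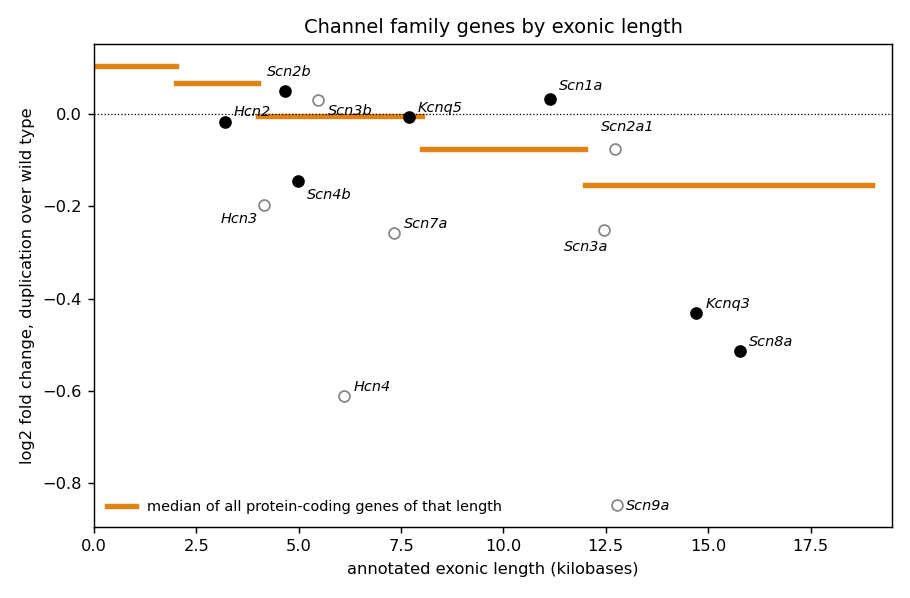
Log2 fold change of duplication over wild type against annotated exonic length in kilobases (retained-intron transcripts included), with the 7 channel genes as filled points, 7 other tested family genes as open points, and bars at the median of all tested protein-coding genes of each length class. The median is 0.10 below 2000 bases and -0.155 at 12000 bases or more, and Scn8a and Kcnq3 lie below it.

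Cell type markers were set beside the channel values. Excitatory neuron markers summed to 2032 to 2144 CPM in duplication and 2002 to 2520.0 CPM in wild type libraries, and interneuron markers to 555.4 to 571.4 CPM in duplication and 546.0 to 651.4 CPM in wild type libraries. Both sums were lowest in wild type library 2 and highest in wild type library 1, which are also the lowest and the highest wild type libraries for Scn8a and Kcnq3. The markers within these lists did not all follow the sums. Neurod6 was at 101 CPM in wild type library 1 and 141 in wild type library 2, and Sst at 94.6 and 111. Vip (35.1 and 47.2) and Npy (33.1 and 38.7) ran the same way. The other markers of both lists were higher in wild type library 1 than in wild type library 2. Oligodendrocyte markers summed to 1191 to 1604 CPM in duplication and 1330.0 to 2290.0 CPM in wild type libraries. Their log2 fold changes were below 0 for 6 of 6, with a median of -0.34, and 0 had an unadjusted edgeR p under 0.05. Over all tested genes 7549 were below 0 and 7852 above. Meningeal fibroblast markers summed to 29.95 to 60.03 CPM in duplication and 20.52 to 31.35 CPM in wild type libraries, and 5 of the 7 were higher at an unadjusted p under 0.05, against 7.07% of all genes. At the same threshold 2 of 6 excitatory neuron, 1 of 7 interneuron and 1 of 4 parvalbumin interneuron markers were lower, against 12.2% of all genes, and 1 of 5 astrocyte and 1 of 4 endothelial markers were higher. Astrocyte markers summed to 859.9 to 960.1 CPM in duplication and 745.0 to 865.6 CPM in wild type libraries, and microglia markers to 235.5 to 243.1 CPM in duplication and 206.5 to 235.2 CPM in wild type libraries. Log2 fold changes were above 0 for 5 of 5 astrocyte and 5 of 5 microglia markers, with medians of 0.13 and 0.08. Choroid plexus markers summed to 2.05 to 3.34 CPM over all 6 libraries, and no list had a marker at 0 in total. The part of these markers in the channel results was not tested.

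For each channel gene the most similar profile over the 6 libraries was sought among 9540 other genes with a mean of at least 10 CPM, by Pearson's r of log2 CPM. Each r is the top of 9540 values over 6 points, from libraries that share a preparation, and is given as a description. Scn8a was closest to Braf (r = 0.99996) and Gucy1a2, and Kcnq3 to the muscarinic receptor gene Chrm1 (r = 0.9992) and Fam117b. Scn1a was closest to Tmtc1 and Tbc1d30, Scn2b to Tufm and Mrpl16, Scn4b to Jakmip3 and Zfand1, Hcn2 to Ctdspl and Tatdn2, and Kcnq5 to Spag9 and Plcxd2.

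The fold changes were recomputed under 18 alternative settings, 17 for Scn2b, which was not tested with names as deposited. Scn1a, Scn4b, Hcn2 and Kcnq5 were called in 0 of 18 and Scn2b in 0 of 17. Scn8a was called in 3 of 18 and Kcnq3 in 2 of 18, and each kept a negative log2 fold change in 17 of 18, the exception being the covariate fit. The ranges over the alternatives were -0.72 to 0.34 for Scn8a and -0.70 to 0.44 for Kcnq3, with adjusted p (edgeR, or DESeq2 or limma-voom where that was the setting) between 0.00214 and 0.999 for Scn8a and between 0.0122 and 0.999 for Kcnq3.

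**Figure D5:**
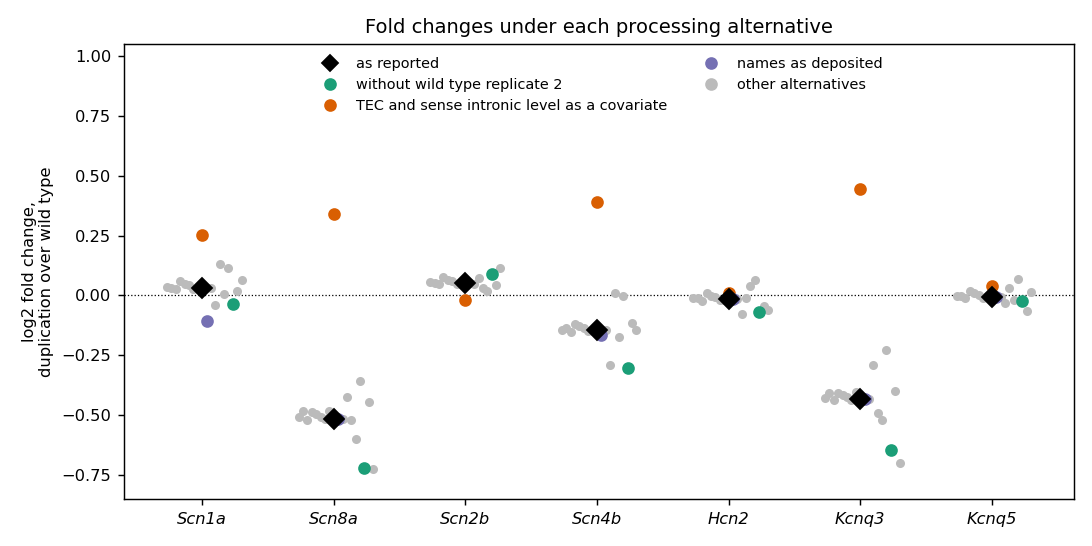
Log2 fold change of duplication over wild type for each of the 7 channel genes as reported (diamond) and under the alternative settings (circles; 18 for each gene but Scn2b, which has 17), with 3 settings coloured. Scn8a and Kcnq3 lie below 0 in each setting but the one with TEC and sense intronic transcripts as a covariate, and they lie lowest in the fits without wild type library 2.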

How the data were processed

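RNA counts from 3 duplication and 3 wild type libraries were used. Per the labels' protocols, extraction used Trizol, followed by a stranded total RNA kit with ribosomal RNA depletion. Per the submitters' processing notes, the authors used cutadapt, TopHat2, HTSeq and the mm10 build. No source used here gives the tool versions, the annotation or the strand setting. Deposited by the authors were raw, not normalized counts per gene in 1 joint table, equal to the 6 single-library tables.

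Names on the joint table sat against counts of other genes: 45807 lines of counts carried 45801 names, and 65.1% of names were shifted by 1 line or more. Each name was moved by the offset of its stretch of the table, as set in an earlier analysis of the same table. Names within 25 lines of a step in the offset and 25 names turned into date numbers were not used, which left 331 lines, with 0.902% to 0.948% of counts, unnamed and out of library sizes and tests. Around each of the 7 genes, in windows of 250 lines to either side, the offset at which counts best followed the annotation class of the names equalled the one used. This check uses the same kind of information that set the offsets. Lengths and classes came from GENCODE vM21, in which 91.8% of used names were found, and start-site windows from RefSeq on GRCm38.p6. Exonic length is the union of exons over all annotated transcripts of a gene, retained-intron transcripts included.

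The groups were compared in R 4.3.3 with edgeR 4.0.16 (TMM factors, filterByExpr, quasi-likelihood F-test, Benjamini-Hochberg adjustment over 15401 genes, threshold 0.05). The procedure was also run on simulated counts, with means and dispersions taken from these data. Those counts held no difference shared across genes within a library, such as that of wild type library 2. That run therefore does not show how the test behaves here. DESeq2 1.42.0 and limma 3.58.1 (voom) were alternatives, as were other scalings, filters, a replicate block, left-out libraries, deposited names and a covariate. CPM used TMM-scaled library sizes, and log2 CPM a prior count of 2. Total counts per library were 12988457 to 21872271; at these depths the 7 genes' counting error is minor, and since no source names molecular identifiers, reads may not be independent molecules. Libraries differed by more than sampling noise (lowest chi-square per degree of freedom 2.69). Named genes were the 7 members, the tested genes of their families (some of which are not reported here), the 3 genes of smallest unadjusted p from each related list, and for likeness the 2 non-member genes of highest r. The members and lists were chosen with earlier results of these data known.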

Additional observations from a re-analysis of the deposited data

How the results depend on the processing

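Over 23 named genes and 18 alternatives, 347 of 407 log2 fold changes kept their direction and side of the threshold, 27 came to lie past it (12 genes) and 33 had the opposite sign (18 genes), 15 of these 33 with the covariate. The covariate, the TEC and sense intronic level, left 3 residual degrees of freedom and gave 0.34 for Scn8a, -0.0203 for Scn2b, 0.39 for Scn4b, 0.0112 for Hcn2, 0.44 for Kcnq3, 0.0385 for Kcnq5, 0.0950 for Scn2a1, 0.16 for Hcn3, 0.31 for Ank3, 0.30 for Nfasc, 0.16 for Gnaq, 0.24 for Chrm1, 0.06 for Pip5k1c, 0.12 for Unc80 and 0.0528 for Unc79, and a median of 0.25 over the 7 channel genes. With names as deposited, Scn1a was at -0.11, Scn9a at 0.0686, Chrm1 at 1.54 and the median at -0.14, by construction because those names then stood on other genes' counts; Scn2b was not tested there. Values near 0 crossed it: Hcn2 to 0.0097 and Kcnq5 to 0.0187 with upper-quartile factors, Kcnq5 to 0.0085 with library size only and to 0.0027 with no filter, and Kcnq5 to 0.0159 and Scn3b to -0.0033 without both libraries numbered 2. Leaving out 1 library at a time, log2 fold changes ran from -0.0411 to 0.13 for Scn1a, -0.30 to 0.0101 for Scn4b, -0.0781 to 0.0627 for Hcn2, -0.0655 to 0.0705 for Kcnq5 and -0.0144 to 0.0793 for Scn3b.

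Counts of calls depended on the setting, and the cause was not tested. Genes called higher numbered 0 as reported, 48 with DESeq2, 173 with no filter, 6 with the replicate block, 230 without both libraries numbered 2 and 0 to 731 with 1 library left out; genes called lower numbered 0, 176, 841, 1, 1090 and 0 to 1677 in the same order. Of the 7 channel genes, 1 (Scn8a) was called lower with no filter, 2 without both libraries numbered 2, and 0 to 2 with 1 library left out, 2 being Scn8a and Kcnq3 without wild type library 2. Of the related genes, 1 was called lower with DESeq2, 7 with no filter, 9 without both libraries numbered 2 and 0 to 14 with 1 library left out. The fit without both libraries numbered 2 was chosen after seeing the data.

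Deviations of same-numbered libraries from their group means correlated at 0.102, 0.063 and 0.311. Among differently numbered pairs, duplication library 1 with wild type library 2 was at 0.157, and the others lay between -0.282 and -0.011. The labels do not say that the numbers pair libraries, so the main test took no pairs. Whether same-numbered libraries share a factor was not tested. Libraries with the same number did share a pattern of Xist and Y-linked counts, and Scn4b was lower in the duplication library of each same-numbered pair. With the replicate block Scn8a was at -0.48 (edgeR adjusted p = 0.213) and Kcnq3 at -0.40 (edgeR adjusted p = 0.34); Scn4b was at -0.15 (edgeR adjusted p = 0.28) with an SE of 0.0654, against 0.179 without the block, and the block called 6 genes higher and 1 lower over all genes. Depth limits Scn4a, Scn10a, Scn11a and Kcnq1, which were too low to test.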
